A study of Drosophila melanogaster and Drosophila melanogaster x Drosophila simulans and Drosophila simulans with 6 samples.

Results

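The D. melanogaster alleles of 10 genes that act in germline stem cells and in the first divisions of the germ cell cyst were compared between the ovaries of hybrids and those of the D. melanogaster parent. The genes were chosen by name, with earlier results of these data known: bam (Dmel_CG10422), bgcn (Dmel_CG30170), mei-P26 (Dmel_CG12218), nos (Dmel_CG5637), pum (Dmel_CG9755), twin (Dmel_CG31137), Sxl (Dmel_CG43770), otu (Dmel_CG12743), ovo (Dmel_CG6824) and zpg (Dmel_CG10125). They are 10 of the 13973 D. melanogaster genes in a table of 28229 features from both species. The hybrids were F1 daughters of females of the D. melanogaster line Hmr2 and males of the D. simulans line w501, so each carried a maternal D. melanogaster and a paternal D. simulans copy of every autosomal and X-linked gene. The 2 other groups were D. melanogaster Hmr2 females and D. simulans w501 females. Hmr2 is a mutant allele of the hybrid incompatibility gene Hmr with which some hybrid females survive, and it came to the hybrids from their mothers, so it is present in both groups compared here. Its X chromosome is inverted in part as well. Polyadenylated RNA was sequenced from whole ovaries of young adults, with 2 libraries per group. Hybrid ovaries were used only where several ovarioles held a row of egg chambers, so the hybrid libraries describe the better developed part of the hybrid ovaries. Even so, in stained hybrid ovaries the study found most germaria, the ovariole tips where germline stem cells sit, without germ cells.

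In the fly ovary, germline stem cells sit at the tip of the germarium next to a somatic niche, which sends a BMP signal that keeps bam switched off. The daughter that leaves the niche switches bam on, and Bam with its partner Bgcn drives the daughter into the divisions that make a cyst of interconnected germ cells. Nanos and Pumilio repress the translation of differentiation mRNAs in the stem cell, and Bam, Bgcn, Mei-P26 and Sex-lethal in turn repress nanos in the differentiating daughter. Females that lack bam or bgcn accumulate undivided stem-cell-like germ cells.

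D. melanogaster genes took 45.1% and 47.7% of the estimated counts of the hybrid libraries, 97.0% and 97.3% of those of D. melanogaster, and 2.61% and 2.65% of those of D. simulans, where such counts are reads placed in the wrong species. Totals ran between 12981002 and 22363396 estimated counts per library. The D. melanogaster replicates differed more from each other (chi-square of 85.5 per degree of freedom over genes) than the hybrid replicates (6.3). This statistic was taken on raw counts and grows with depth. The D. melanogaster libraries held more counts on these genes (18862883 and 13254184, against 7582260 and 8159323 in hybrids), so the sizes of the values are not on one scale. Germline markers were present in all of these libraries, with a summed level of 2750 and 2783 TPM in hybrids, against 1970 and 2817 TPM in D. melanogaster, and 3 of 13 (orb, aub and grk) fell. The median log2 fold change of the 13 was -0.16. Of the early somatic markers 3 of 9 tested fell (tj, eya and mirr, with log2 fold changes of -2.89, -1.98 and -1.52), and the median was -0.99. Their sums were 93.65 and 93.4 TPM in hybrids, against 90.2 and 107.61 TPM in D. melanogaster, and engrailed was at 0. In hybrids Fas3 and zfh1, neither of them called, had the highest TPM of this list. On log2(TPM + 1) the median gene tested was 0.44 higher in hybrids, so similar sums do not mean unchanged markers. Late follicle cell markers fell in 10 of 11 cases, with sums of 8300 and 9569 TPM in hybrids, against 25788 and 21510 TPM in D. melanogaster. All 8 muscle markers rose, with sums of 943 and 840 TPM in hybrids, against 223 and 177 TPM in D. melanogaster, and both hemocyte markers that could be tested rose, with He at 0 and sums of 6.57 and 6.2 TPM against 0.58 and 0.49 TPM. In whole ovaries, fewer cells of a type and less RNA per cell cannot be told apart, and the part that these markers had in the results below was not tested.

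The normalised read count (CPM) is the estimated count of a gene per 1000000 counts on D. melanogaster genes, after scaling between libraries, and it compares one gene between libraries. The TPM, which is also divided by transcript length and is given here per 1000000 over the D. melanogaster genes alone, compares genes with each other. A gene was called changed at an adjusted p-value below 0.05 and a fold change of at least 2 in edgeR's quasi-likelihood test. All fold changes are relative to the other D. melanogaster alleles of the same library, because those alleles were on the whole at a lower dose in hybrids: against the counts of both species their median log2 change was -0.92.

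All 10 genes were detected at a level that could be tested. Of these, bgcn rose, bam fell and 8 were not called. Across all 8202 D. melanogaster genes tested, 13.2% were called, 2.99% higher and 10.3% lower (245 and 841 genes). That split became 517 and 636 genes when libraries were scaled on germline markers, and 831 and 396 genes with limma on log2(TPM + 1). An adjusted p below 0.05 at any fold change was reached by 3 of the 10 genes (bam, bgcn and zpg) and by 21.8% of all genes tested. The median log2 fold change of the 10 genes was -0.12, beside a median of 0.00 over all genes tested.

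**Figure D1:**
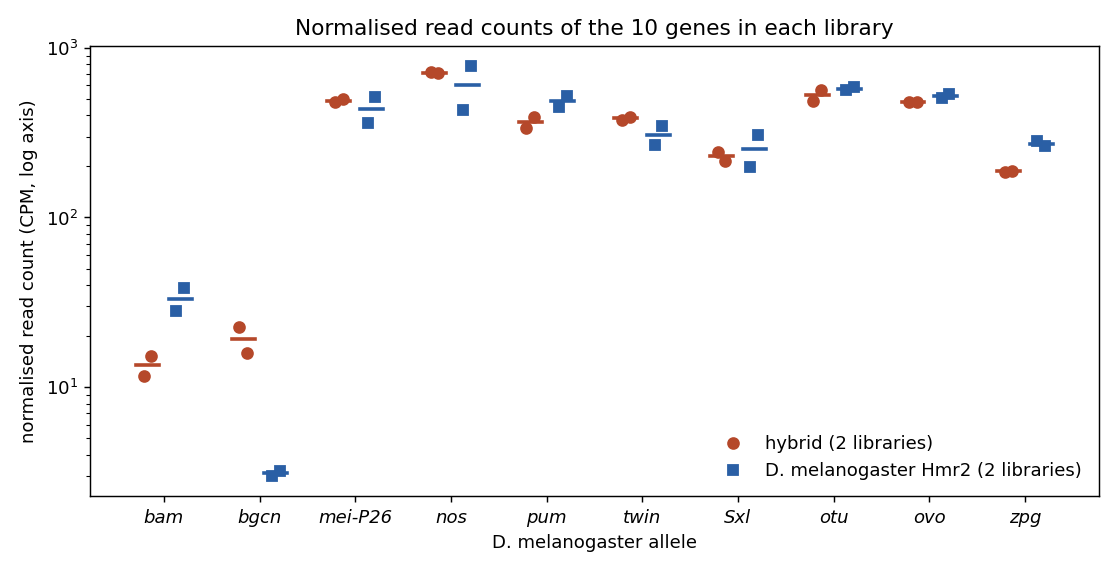
Normalised read counts (CPM, log axis) of the D. melanogaster alleles of the 10 genes, with a point for each library and a bar at the mean of the group (hybrid circles, D. melanogaster Hmr2 squares). bam and bgcn are the least abundant genes of the set, and bgcn is the one whose hybrid libraries (22.7 and 15.9) stand farthest above those of D. melanogaster (3.0 and 3.22).

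bgcn (benign gonial cell neoplasm) encodes a protein related to RNA helicases that binds Bam. It lies at 2R:23853270-23858921 (minus strand, Release 6 assembly). Its normalised read count was 22.7 and 15.9 in the hybrid libraries, against 3.0 and 3.22 in the D. melanogaster libraries. Both hybrid libraries were far above both D. melanogaster libraries, and the D. simulans libraries held only 2 and 1 counts on this gene. These levels rest on 183 and 135 estimated counts in hybrids and 52 and 42 in D. melanogaster. The gene was 6.19-fold higher in hybrids (log2 fold change 2.63, SE 0.293, n = 2 per group, adjusted p = 0.00194 by edgeR's quasi-likelihood test). Of all genes tested, 40 had a log2 fold change at or above that of bgcn, itself included. Leaving out each library in turn gave log2 fold changes from 2.35 to 2.86.

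bgcn sits in a crowded stretch of the chromosome, which allows its neighbours to be read beside it. The BMP ligand gene gbb lies 23 bases from bgcn, and its normalised read counts were 12.7 and 8.47 in hybrids, against 16.2 and 8.52 in D. melanogaster, with overlapping groups. On the other side TBPH, which encodes the fly TDP-43 protein, lies 146 bases away and had a log2 fold change of -0.22 (adjusted p = 0.327 by edgeR). Pym, nested in bgcn on the same strand and sharing no exonic bases with it, had a log2 fold change of -0.11 (adjusted p = 0.654). None of these neighbours was called, and the next genes outwards, ytr and Cpes, had log2 fold changes of -0.51 and 0.10 (adjusted p = 0.0666 and 0.647 by edgeR).

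bam (bag of marbles) encodes the differentiation factor that is off in stem cells and on in cystoblasts and early cysts. It lies at 3R:25243039-25245109 on the minus strand. Its normalised read count was 11.7 and 15.2 in hybrids, against 28.1 and 38.4 in D. melanogaster, so the groups were apart. The gene was 2.47-fold lower in hybrids (log2 fold change -1.30, SE 0.241, n = 2 per group, adjusted p = 0.0115 by edgeR). These levels rest on 94 and 129 estimated counts in hybrids and 487 and 500 in D. melanogaster, and the D. simulans libraries held 1 and 0 counts on the gene. A decrease of this size was not rare, since 714 tested genes had a log2 fold change at or below that of bam. Leaving out each library in turn gave -1.51 to -1.09. With limma on log2(TPM + 1) the value was -0.79 (adjusted p = 0.115), which is -1.23 relative to the median gene in that fit.

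bam and CG11854 share 224 exonic bases on opposite strands, which is 11.5% of the exonic bases of bam, and CG11854 was at 0 counts in all 4 libraries compared. The ribosomal protein gene RpS27, 846 bases from bam, had a log2 fold change of -0.79 (SE 0.256, adjusted p = 0.0624 by edgeR) and was not called. Nup37, which encodes a nucleoporin, had a log2 fold change of 0.02 (adjusted p = 0.957) on the same side, and the gene to was at 0 counts. Jhbp7, 4144 bases from bam on the other side, was called higher, with normalised read counts of 9.05 and 9.06 in hybrids, against 4.27 and 1.38 in D. melanogaster (log2 fold change 1.65, SE 0.489, adjusted p = 0.0498).

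The opposite changes of the 2 D. melanogaster alleles can also be given as a ratio within each library. It restates those changes, and it leaves out the D. simulans alleles of both genes, which hybrids also carry. The TPM of bam was 1.13 and 2.10 times that of bgcn in hybrids, against 20.5 and 26.1 times in D. melanogaster. bam stood at 12.8 ± 2.43 TPM in hybrids and 23.5 ± 8.96 TPM in D. melanogaster, and bgcn at 8.37 ± 2.06 TPM in hybrids and 0.989 ± 0.217 TPM in D. melanogaster (SD, n = 2 each). Because it is taken within a library, this ratio does not depend on the scaling between libraries. The log2 fold changes of the genes differ by 3.93.

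**Figure D2:**
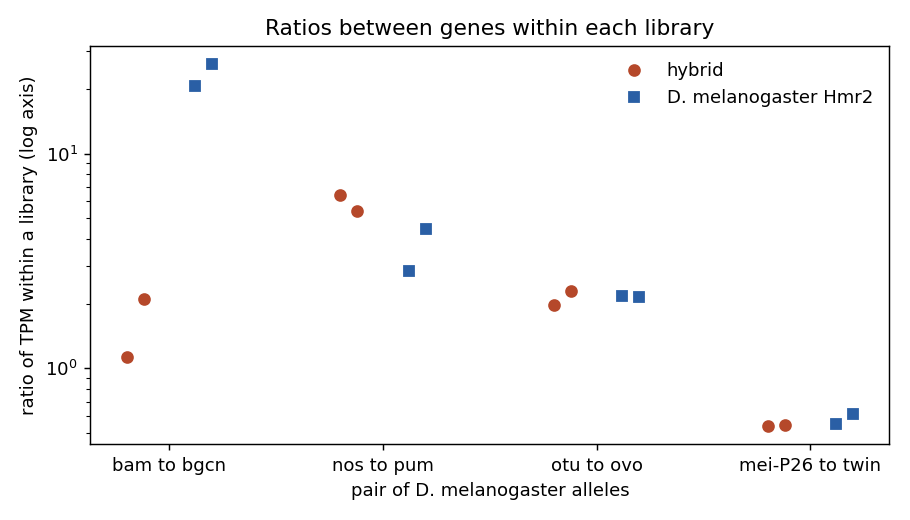
Ratios of TPM between 4 pairs of D. melanogaster alleles within each library (log axis), with hybrid libraries as circles to the left and D. melanogaster Hmr2 libraries as squares to the right. The bam to bgcn ratio was 1.13 and 2.10 in hybrids, against 20.5 and 26.1 in D. melanogaster, while the otu to ovo ratio overlapped between the groups.

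The 8 other genes stayed within a narrow range, from a log2 fold change of -0.54 (zpg) to 0.33 (twin). In this respect they resembled most genes, as 60.5% of those tested had an absolute log2 fold change of at most 0.54. Counting all 10, both hybrid libraries lay beyond both D. melanogaster libraries for 6 genes, 2 higher and 4 lower, which is a share below the 73.7% of all tested genes with such non-overlapping groups.

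**Figure D3:**
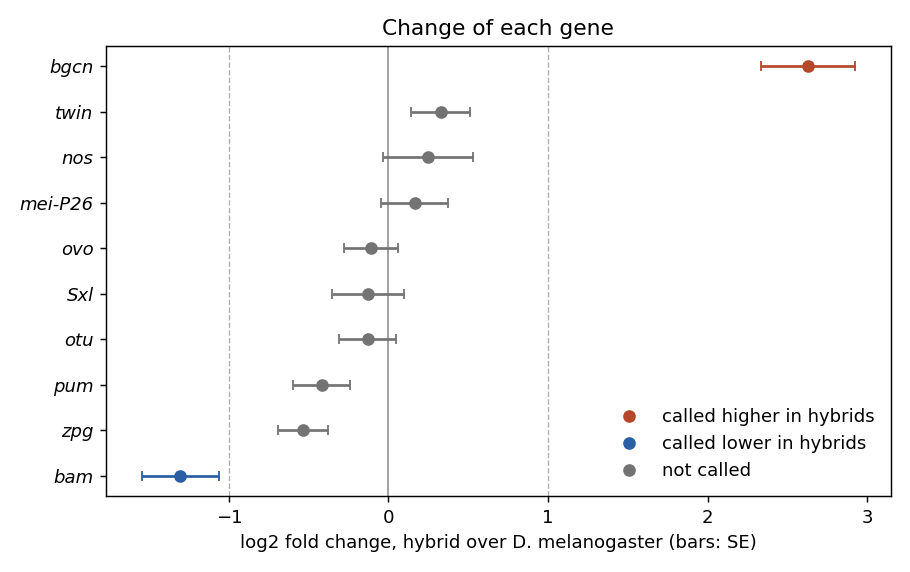
Log2 fold change of each gene, hybrid over D. melanogaster Hmr2, from edgeR, with bars of 1 SE and dashed lines at a 2-fold change. bgcn (2.63) and bam (-1.30) lie outside the dashed lines and the 8 others between -0.54 and 0.33.

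Among the partners of Bam and Bgcn, mei-P26 encodes a TRIM-NHL protein that restrains growth and proliferation in the cyst, and the gene lies at X:9163255-9189309. Its normalised read count was 478 and 498 in hybrids, inside the span of 359 and 512 in D. melanogaster (log2 fold change 0.16, SE 0.212, adjusted p = 0.579 by edgeR). twin encodes the CCR4 deadenylase, the catalytic subunit that shortens the poly(A) tails of mRNAs repressed by Nanos and Pumilio and by Bam, and lies at 3R:24196893-24221965. Its counts of 378 and 392 in hybrids were above the 268 and 346 in D. melanogaster, a difference that did not pass the test (log2 fold change 0.33, SE 0.185, adjusted p = 0.218). twin shares 454 exonic bases, 9.61% of its total, with the gene cav on the opposite strand, whose log2 fold change was 0.25 (adjusted p = 0.262).

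Of the stem cell maintenance pair, nos at 3R:19157238-19160202 and pum at 3R:9066343-9237682, neither gene was called. nos encodes the translational repressor Nanos, and its normalised read count was 719 and 709 in hybrids, between the 427 and 777 of D. melanogaster (log2 fold change 0.25, SE 0.282, adjusted p = 0.531 by edgeR). The spread of the D. melanogaster replicates is wider here than the difference between groups. The log2 fold change turned on which of them was kept: it was -0.12 without replicate 1 and 0.71 without replicate 2, still under 2-fold. pum encodes the RNA-binding partner of Nanos. It had 336 and 391 in hybrids, below the 450 and 523 in D. melanogaster, and the difference did not pass the test (log2 fold change -0.42, SE 0.181, adjusted p = 0.125). Within libraries the TPM of nos was 6.40 and 5.43 times that of pum in hybrids, against 2.84 and 4.43 times in D. melanogaster. The groups do not overlap in this ratio, which was not tested. They were also apart for mei-P26 to twin (0.5385 and 0.5459 in hybrids, against 0.5531 and 0.6144 in D. melanogaster). Of single genes tested, 73.7% had non-overlapping groups.

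Sxl (X:7074550-7098053), otu (X:8485008-8489535) and ovo (X:5048273-5070929) belong to the germline sex determination group, and all lie on the X chromosome. Sxl encodes the female-specific splicing and translation regulator, which in the germline is also needed for stem cell daughters to differentiate. Its normalised read count was 244 and 216 in hybrids, within the 200 and 305 of D. melanogaster (log2 fold change -0.13, SE 0.224, adjusted p = 0.682 by edgeR). Sxl was also the gene with the most wrongly placed reads, with 345 and 647 counts in the D. simulans libraries, and reads from the D. simulans allele would make up 13.3% of its hybrid counts at that rate. With those reads subtracted the log2 fold change was -0.30 (adjusted p = 0.35), and without D. melanogaster replicate 2 its sign turned, to 0.18. For the other genes the share of wrongly placed reads was at most 1.43%.

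ovo encodes a zinc finger transcription factor that activates otu in the female germline, and otu encodes a deubiquitinase that works with Bam. otu had 488 and 561.4 in hybrids, against 561.1 and 587 in D. melanogaster, and the groups overlap by a hair (log2 fold change -0.13, SE 0.178, adjusted p = 0.601 by edgeR). ovo had 482 and 481 in hybrids, against 506 and 532 in D. melanogaster (log2 fold change -0.11, SE 0.168, adjusted p = 0.642). Neither was called, and the TPM of otu was 1.98 and 2.29 times that of ovo in hybrids, against 2.18 and 2.15 times in D. melanogaster.

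zpg (zero population growth, 3L:6604366-6606032) encodes innexin 4, the germline subunit of the gap junctions that connect early germ cells to the somatic cells around them, and without which early germ cells are lost. Its normalised read count was 187 and 188 in hybrids, against 281 and 263 in D. melanogaster, with tight replicates and separate groups. The difference passed the adjusted p-value but not the 2-fold limit (log2 fold change -0.54, SE 0.156, adjusted p = 0.0465 by edgeR). Leaving out each library in turn gave log2 fold changes from -0.61 to -0.49. The adjusted p-value was below 0.05 in 4 of the 8 other alternatives. It missed that limit with library totals of both species (0.0659), with wrongly placed reads subtracted (0.0577) and with germline marker scaling (0.15, log2 fold change -0.31). It also missed it with limma on log2(TPM + 1) (0.755, log2 fold change -0.07, which is -0.51 relative to the median gene in that fit).

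The order of the 10 genes by level was largely shared. In hybrids nos was the most abundant with 570 ± 3.43 TPM, followed by otu (310 ± 32.9), twin (247 ± 5.82), zpg (241 ± 2.56), Sxl (159 ± 13.6), ovo (145 ± 0.666), mei-P26 (134 ± 4.46) and pum (97.1 ± 10.7), with bam and bgcn far below (SD, n = 2 each). The only neighbours in that order whose libraries overlapped were twin and zpg. In D. melanogaster nos was again first with 363 ± 204 TPM, followed by zpg (253 ± 31.5), otu (247 ± 49.0), twin (140 ± 47.0), Sxl (121 ± 54.3), ovo (114 ± 23.6), pum (95.8 ± 26.4) and mei-P26 (82.7 ± 33.5). There all neighbours overlapped except otu with twin, mei-P26 with bam and bam with bgcn. The summed TPM of the 10 genes was 1896 and 1953 in hybrids, against 1104 and 1780 in D. melanogaster. These sums do not show a rise of the set, because on log2(TPM + 1) the median gene tested was itself 0.44 higher in hybrids. By normalised read count the median log2 fold change of the 10 genes was -0.12.

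A further readout was the mean length of the transcripts to which the reads of a gene were assigned, obtained by dividing counts by TPM and setting the result against the median gene of the library. It changes where a gene shifts between long and short transcripts, and it was examined after the values had been seen. For 7 genes it differed by less than 0.3% between the groups. In mei-P26 it was 93.2% and 93.3% of the D. melanogaster mean in hybrids, against 99.6% and 100.4% in the D. melanogaster libraries, a change of -6.78%. In Sxl it was 93.2% and 93.8% in hybrids, against 99.5% and 100.5% in D. melanogaster, a change of -6.49%. Both genes therefore had shorter assigned transcripts in hybrids, with groups apart. In twin the change was -3.57%.

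A change of at least 5% with groups apart was seen in 5.12% of the 7486 genes with enough counts, 2.62% toward shorter and 2.5% toward longer transcripts, and 2 of the 10 genes had one. The annotation holds 6 transcripts of mei-P26, of 4966 to 23041 bases, and 25 of Sxl, of 1515 to 5964 bases. For Sxl, the wrongly placed D. simulans reads given above move with this result, and their part in it was not tested. For mei-P26 the D. simulans libraries held 9.7 and 19.1 counts, 0.198% of its level. Which transcripts differed was not analysed here.

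**Figure D4:**
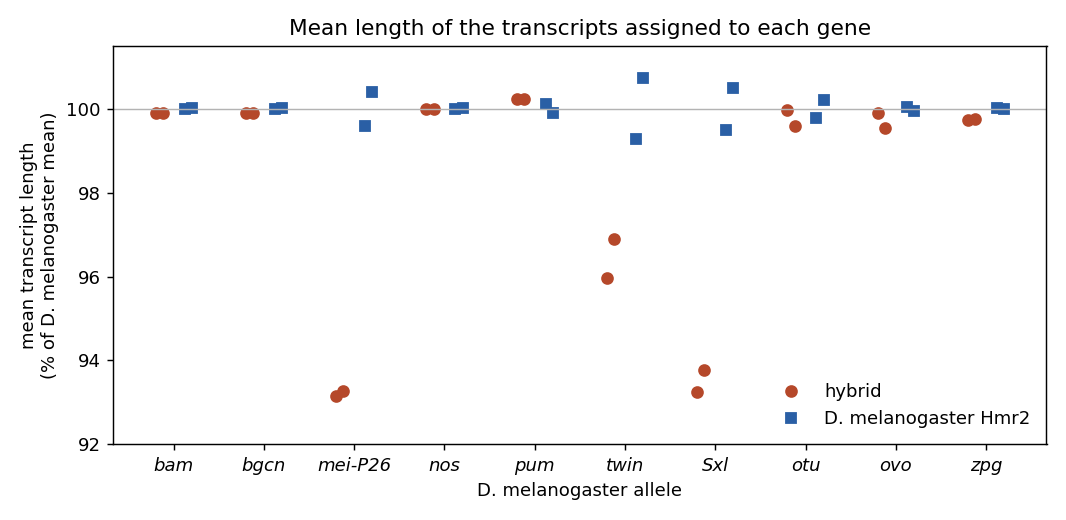
Mean length of the transcripts assigned to each gene, as a percentage of the mean of the D. melanogaster Hmr2 libraries, with hybrid libraries as circles and D. melanogaster libraries as squares (the axis does not start at 0). mei-P26 (93.2% and 93.3%), Sxl (93.2% and 93.8%) and twin (96.0% and 96.9%) are shorter in hybrids, and for 7 genes the group means differ by less than 0.3%.

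The wider pathway was read from 7 lists with 59 genes, of which 57 could be tested. Of these 1 rose, 3 fell and 53 were not called, which makes 7.02% called, beside 13.2% of all genes tested. Their median log2 fold change was 0.27, with 37 values above 0 and 20 below.

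In the list of cyst differentiation genes 1 of 10 fell and none rose, with a median log2 fold change of 0.11. The gene that fell was orb, which encodes a translational regulator of oocyte mRNAs and is restricted to the oocyte as the cyst matures. It had normalised read counts of 338 and 336 in hybrids, against 992 and 973 in D. melanogaster (log2 fold change -1.54, SE 0.179, adjusted p = 0.00222 by edgeR). The more abundant genes of the list that were not called were bru1 (translational repressor Bruno 1; log2 fold change -0.18), Ote (the lamina protein Otefin; 0.29) and CSN4 (a COP9 signalosome subunit that binds Bam; -0.05). No other gene of the list came near the decrease of orb or of bam.

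None of the 14 stem cell maintenance genes was called (median log2 fold change 0.44). Among them eff, a ubiquitin-conjugating enzyme, had 1411 and 1293 in hybrids, against 1002 and 913 in D. melanogaster (log2 fold change 0.50, adjusted p = 0.105 by edgeR). lola, a chromatin and transcription regulator, had a log2 fold change of 0.48 (adjusted p = 0.198). piwi, the nuclear Argonaute of the piRNA pathway, had 167 and 172 in hybrids, against 302 and 278 in D. melanogaster (log2 fold change -0.77, adjusted p = 0.016), a difference that passed the adjusted p-value but was under 2-fold. Dcr-1, the microRNA-processing enzyme, and Iswi, a chromatin remodeller, also passed the p-value under 2-fold, with log2 fold changes of 0.95 (adjusted p = 0.0234) and 0.77 (adjusted p = 0.0222). These last 2 genes were picked after their values were seen.

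None of the 6 further CCR4-NOT subunits, the deadenylase complex that holds Twin, was called (median log2 fold change 0.29). Pop2, the other catalytic subunit, had 172 and 186 in hybrids, against 181 and 151 in D. melanogaster, while Rcd-1 and Not3 had log2 fold changes of 0.56 (adjusted p = 0.0421 by edgeR) and 0.48 (adjusted p = 0.0764). None of the 9 fusome genes, which build the membranous organelle that runs through the dividing cyst, was called either (median 0.11). Of these TER94, an AAA ATPase, had a log2 fold change of 0.11, the vesicle regulator Rab11 one of -0.01 and the dynein regulator Lis-1 one of 0.30.

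None of the 8 other germline sex genes was called (median log2 fold change 0.11). The splicing factors snf, tra2 and fl(2)d had log2 fold changes of 0.02, -0.40 and 0.61, with adjusted p-values of 0.918, 0.167 and 0.0527 by edgeR. None of the 5 regulators of nos mRNA was called (median 0.29). Smaug (smg), which represses unlocalised nos, had 2304 and 2422 in hybrids, against 1146 and 1909 in D. melanogaster (log2 fold change 0.63, adjusted p = 0.14). osk, which assembles the pole plasm that holds nos, and me31B, a helicase of repressed mRNPs, had log2 fold changes of -0.16 and -0.06.

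**Figure D5:**
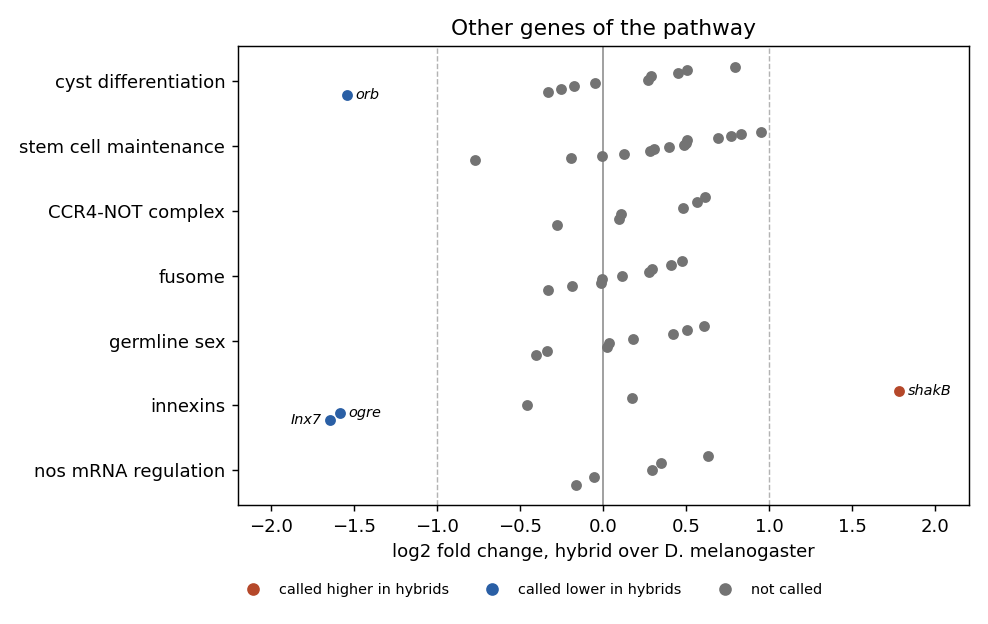
Log2 fold change, hybrid over D. melanogaster Hmr2, of the 57 tested genes in 7 lists, with a point for each gene (no error bars), dashed lines at a 2-fold change and names beside the called genes. orb (-1.54), ogre (-1.58) and Inx7 (-1.64) lie below and shakB (1.78) above the limits.

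The innexins, the gap junction family of zpg, were the list with the most calls. Of 5 tested, ogre and Inx7 fell and shakB rose (median log2 fold change -0.46). ogre, which is known from glia and the optic lobe, had 15.8 and 16.6 in hybrids, against 49.6 and 47.4 in D. melanogaster (log2 fold change -1.58, adjusted p = 0.00178 by edgeR), and subtracting the expected wrongly placed reads took it to -2.44. Inx7 had 4.46 and 3.41 in hybrids, against 15.9 and 8.59 in D. melanogaster (log2 fold change -1.64, adjusted p = 0.0245). shakB, known from electrical synapses of neurons, had 5.58 and 6.24 in hybrids, against 1.73 and 1.69 in D. melanogaster (log2 fold change 1.78, SE 0.351, adjusted p = 0.0143). The increase of shakB and the rise of all 8 muscle markers occurred in the same libraries, and the part of such tissue in it was not tested.

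Inx2, which pairs with zpg from the somatic side, had 150 and 149 in hybrids, against 186 and 226 in D. melanogaster (log2 fold change -0.46, adjusted p = 0.0837 by edgeR), a value close to that of zpg. Inx3 had a log2 fold change of 0.17 (adjusted p = 0.634), Inx6 was at 0 in all 4 libraries and Inx5 was too low to test. Without hybrid replicate 2 the log2 fold changes of Inx7 and shakB were -1.46 and 1.70, close to those of the full set.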

How the data were processed

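Estimated counts and TPM were deposited by the authors. They assigned reads with kallisto 0.50.0 to RefSeq transcripts of the 2 species combined, and summed protein-coding genes with tximport. The deposited TPM cover all transcripts of both species and were rescaled here to 1000000 over the D. melanogaster genes. The study names a directional library kit, and the kallisto options it lists hold no strand setting. A count header that repeats a TPM name was resolved from its values, which were compared with a length column and that library's TPM. The 6 length columns were not used otherwise. A RefSeq table of the same assembly, in which nos is named nanos, matched 13972 of the 13973 D. melanogaster identifiers. Exons came from the Ensembl annotation. D. simulans genes carry no names in the tables used, so the D. simulans alleles were not analysed here.

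For testing, estimated counts were rounded and compared in R 4.3.3 with edgeR 4.0.16 (quasi-likelihood, two-sided, TMM within D. melanogaster genes, filterByExpr with 10 counts). P-values were adjusted by Benjamini-Hochberg over the 8202 genes. Genes were called at 0.05 and a log2 fold change of 1, after the thresholds of the study. Alternatives used DESeq2 1.42.0, limma 3.58.1 on log2(TPM + 1), other filters and scalings, a replicate block, each library left out, no minimum fold, and, added after the data were seen, subtraction of wrongly placed reads. For the scaling on library totals of both species, the hybrid totals were shifted by the median log2 change. The median gene was thereby unchanged in that fit. A fit with a library left out takes its replicate spread from the other group alone, so only its log2 fold changes are given. Wrongly placed reads were taken as the counts of a D. melanogaster gene in D. simulans libraries, scaled to the D. simulans counts of each hybrid library. At these depths 3 counts correspond to 0.159 to 0.396 CPM.

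The members and lists were chosen with earlier results of these data known. All 10 genes are named. From each list every called gene is named, and up to 3 others with the highest mean TPM in D. melanogaster. The replicates are described as biological, but nothing in the labels ties them to separate crosses, so p-values measure only the spread between these libraries.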

Additional observations from a re-analysis of the deposited data

Results flagged for a closer look

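Reads on the D. melanogaster alleles were also found in D. simulans libraries, which the comparisons did not use and where none should be. For 6 of the 10 genes these counts exceeded 3 in both libraries. Giving replicate 1 before replicate 2, Sxl had 345 and 647 such counts. pum had 56.7 and 112, ovo 39.5 and 105, nos 21.9 and 32.1, twin 21.8 and 39.3, and mei-P26 9.7 and 19.1. Subtracting the expected share from the hybrid counts changed no call among the 10 genes, and Sxl was the gene with the largest share (13.3% of its hybrid counts).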

How the results depend on the processing

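Of 80 values of the 10 genes under 8 alternatives, 72 kept their direction and call. bgcn was called in all 8 alternatives. The alternative with library totals of both species was re-centred on the median gene, so it could not shift the 10 genes as a group. With limma on log2(TPM + 1), bam had -0.79 (adjusted p = 0.115) and no gene of the 10 was called lower, against 2 (bam and zpg) with no minimum fold change. That scale shifted the median gene by 0.44, and germline marker scaling shifted it by 0.23. Some uncalled genes had the other sign there. Under limma pum was at 0.04, Sxl at 0.46, otu at 0.34 and ovo at 0.36, and under germline marker scaling Sxl was at 0.12, otu at 0.10 and ovo at 0.12. Relative to the median gene, limma gave -0.40 for pum, 0.02 for Sxl, -0.10 for otu and -0.08 for ovo. Leaving out D. melanogaster replicate 1 gave -0.12 for nos and -0.07 for mei-P26, and leaving out replicate 2 gave 0.71 and 0.41 for these genes and 0.18 for Sxl. The cause was not tested.

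Pathway genes called higher, 1 in the fit reported, numbered 5 with germline marker scaling, 11 with limma, 4 with no minimum fold change and 0 to 5 with a library left out. Over all genes, the 245 higher and 841 lower became 508 and 1174 without D. melanogaster replicate 2, 517 and 636 with germline marker scaling, and 831 and 396 with limma. The replicate numbers did not pair the libraries (correlation -0.000255), and a replicate block left bam at -1.30 and bgcn at 2.62, changed no call of the 10 genes and called 298 genes higher and 901 lower. The spread is estimated from 2 libraries per group, and bgcn rests on 42 to 183 counts per library.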

Other observations

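Some neighbours of the 10 genes were called where the genes were not, and only those are given here. Most neighbours tested were not called, and 13.2% of all genes tested were called, so these calls are not read as a trait of these places. Cp38, a chorion gene 1697 bases from otu, had normalised read counts of 228 and 701 in hybrids, against 2945 and 1362 in D. melanogaster (log2 fold change -2.21, adjusted p = 0.0312 by edgeR), while otu was not called. ndl, which encodes the follicle-cell protease Nudel and lies 1000 bases from zpg, had 30.8 and 33.1 in hybrids, against 114 and 98.4 in D. melanogaster (log2 fold change -1.74, adjusted p = 0.00123). The uncharacterised gene CG12541, 8498 bases from Sxl, had 7.57 and 9.77 in hybrids, against 2.19 and 1.23 in D. melanogaster (log2 fold change 2.31, adjusted p = 0.00911). CG4607, nearer to Sxl at 1861 bases, was called higher as well (log2 fold change 1.25, adjusted p = 0.0435 by edgeR). CG13609, 5058 bases from twin, was called lower (log2 fold change -1.22, adjusted p = 0.0398 by edgeR). These neighbours were picked after their values were seen.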
